A study of Mus musculus with 31 samples.

Results

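The genes described here are 4 secreted inhibitors of WNT signaling, Dkk1, Frzb, Sfrp1 and Sfrp2, the WNT secretion gene Wls, and Lef1 and Ctnnb1, which act where the signal ends in the nucleus. They were chosen as the probe sets that carry exactly 1 gene symbol equal to 1 of these names, which gave 8 probe sets of 7 genes among the 12422 probe sets tested (8251 genes have such a probe set). All 7 genes were measured. Dkk1, Frzb, Sfrp1, Sfrp2, Wls and Ctnnb1 each have 1 probe set and Lef1 has 2.

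The 31 Affymetrix arrays profile B6 mouse embryonic stem (ES) cells and the embryoid bodies (EBs) grown from them. All cells came from cultures kept on mouse embryonic fibroblast feeders with serum and LIF, a cytokine that holds mouse ES cells undifferentiated. The 2 day-0 groups are ES cells depleted of feeders and passaged once on gelatin (6 arrays) and ES cells sorted by FACS on an Oct4 GFP reporter (6 arrays). EBs were seeded from the ES cells on gelatin into nonadherent dishes without LIF and were collected at day 4 (7 arrays), day 8 (6 arrays) and day 14 (6 arrays). An EB is a free-floating aggregate that forms derivatives of all germ layers, so each array reads a mixture, and more cells of a type cannot be told apart from more RNA per cell. The labels name no genetic change other than the reporter.

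In the canonical WNT pathway a lipid-modified ligand, carried out of the producing cell by Wls, binds a Frizzled receptor and an LRP coreceptor. The complex that destroys β-catenin, the product of Ctnnb1, is then inhibited, and β-catenin enters the nucleus to act with TCF/LEF factors such as Lef1. Secreted Frizzled-related proteins (Sfrp1, Sfrp2 and Frzb) bind ligands outside the cell, and Dkk1 binds the LRP coreceptors. In the early mouse embryo WNT signaling is needed for the primitive streak and mesoderm, and inhibitors such as Dkk1 are made by the anterior visceral endoderm.

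Arrays of 1 group correlated between 0.947 and 0.997 on the log2 scale. At day 4, replicates 6 and 7 stood apart from the other day 4 arrays, and among the sorted cells replicate 5 did. The summed signal of 10 ES cell markers was 44470 to 53976 in sorted cells and 6571 to 15297 at day 14, with Nanog, Zfp42 and the other 8 markers all lower at day 14. The day-0 groups also differed. On gelatin the ES cell markers summed to 23454 to 28062, with 7 of 10 lower than in sorted cells and 0 higher, against 23180 to 41010 in day 4 EBs. The 6 neural markers summed to 9830 to 14491 on gelatin and 7446 to 8553 in sorted cells, with 3 higher on gelatin and 0 lower. On gelatin the summed signal of 12 fibroblast and mesenchyme markers was 17821 to 31059, against 8754 to 11960 in sorted cells, and the Gapdh control probes gave 3′ over 5′ signal ratios, a measure of RNA integrity and amplification, of 3.48 to 6.85 against 2.76 to 3.09. Each EB time is therefore set against both day-0 groups below. Those comparisons share EB arrays and are not independent of each other.

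The 250 bases upstream of the RefSeq transcription start (mouse build GRCm38.p6) are shown for 3 members that changed, to show whether the TCF/LEF letters through which β-catenin acts lie there. RefSeq promoter sequence was matched for 6 of the 7 members and not for Sfrp1. The letters searched, on either strand, were CTTTG followed by AA, AT, TA or TT. Matches are in capitals in the lines below, which run 5′ to 3′ along the gene. Dkk1 (chr19:30549497-30549746, minus strand) had 2 matches, CTTTGAA beginning 117 bases and CTTTGTT beginning 98 bases before the start. Frzb (chr2:80447397-80447646, minus strand) and Wls (chr3:159839400-159839649, plus strand) had 0 matches.
Dkk1: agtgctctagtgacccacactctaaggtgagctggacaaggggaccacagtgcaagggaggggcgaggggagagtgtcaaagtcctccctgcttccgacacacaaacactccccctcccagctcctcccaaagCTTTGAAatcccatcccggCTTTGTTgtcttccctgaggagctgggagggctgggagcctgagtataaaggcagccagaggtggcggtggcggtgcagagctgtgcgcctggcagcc
Frzb: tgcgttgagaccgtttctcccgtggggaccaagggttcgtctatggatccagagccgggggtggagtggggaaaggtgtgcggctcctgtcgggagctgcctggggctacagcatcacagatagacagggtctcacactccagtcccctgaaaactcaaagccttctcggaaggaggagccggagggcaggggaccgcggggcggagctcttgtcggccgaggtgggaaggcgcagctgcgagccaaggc
Wls: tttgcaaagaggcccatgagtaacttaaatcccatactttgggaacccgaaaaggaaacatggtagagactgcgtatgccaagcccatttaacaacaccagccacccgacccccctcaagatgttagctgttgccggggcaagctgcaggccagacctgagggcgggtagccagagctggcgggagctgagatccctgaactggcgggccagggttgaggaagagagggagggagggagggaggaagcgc
At least 1 match was present in 14.8% of the 32851 mouse promoter windows of the same length, and 2 or more in 1.43%. Among the other members, Sfrp2 and both starts of Ctnnb1 had 0 matches and 1 of the 4 starts of Lef1 had 1 match. A match describes letters and is no measurement of binding.

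Dkk1 and Frzb were higher in EBs at days 8 and 14 than in either day-0 group, with no overlap between arrays. The Dkk1 signal (linear intensity, as all signals below) was 133, 134, 132, 137, 122 and 123 in the 6 sorted samples and 113, 119, 112, 111, 106 and 115 on gelatin. Day 4 EBs read 111, 122, 106, 120, 112, 145 and 152. Day 8 EBs read 315, 440, 315, 403, 240 and 352, whereas day 14 EBs read 404, 305, 324, 336, 400 and 370. All 12 arrays of the later EBs therefore lay above all 19 arrays of the ES cells and day 4 EBs. Against sorted cells Dkk1 rose 2.60-fold at day 8 (log2 difference 1.38 ± 0.11, SE; limma, adjusted p = 1.35e-10) and 2.73-fold at day 14 (1.45 ± 0.11, adjusted p = 1.27e-11). Against gelatin the log2 differences were 1.58 ± 0.11 and 1.65 ± 0.11. Dkk1 was dim in the earlier groups, at percentile 13.8 of all probe sets in sorted cells, 11.4 on gelatin and 13.1 at day 4. At days 8 and 14 it lay at percentiles 35.1 and 34.9. The size of the fold differences is therefore uncertain. Most of the step lay between days 4 and 8 (1.46 ± 0.10, adjusted p = 3.54e-11), and from day 8 to day 14 the difference was 0.07 with a 95% interval from -0.15 to 0.29. The 2 highest day 4 values belonged to replicates 6 and 7, the arrays that stood apart. Those arrays also had the lowest ES cell marker sums of day 4 (23180 and 27003, against 32713 to 41010) and the highest sums of 6 visceral endoderm markers (3534 and 4251, against 1404 to 1513).

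Visceral endoderm markers were higher at the days when Dkk1 and the other inhibitors described next were higher. Other marker lists were less uniform. The visceral endoderm markers summed to 1473 to 1630 in sorted cells and 1368 to 1615 on gelatin, to 11771 to 23865 at day 8 and to 24910 to 33203 at day 14. All 6 measured markers of that list, among them Rbp4, Apoa1 and Apob, were higher than in sorted cells at both times, and none was at 0 in any group. The fibroblast and mesenchyme markers summed to 6593 to 18889 at day 8, overlapping the 8754 to 11960 of sorted cells, with 4 of 12 higher and 3 lower. At day 14 they summed to 25393 to 41039, with 7 of 12 higher than in sorted cells and 3 lower. Of 6 cardiac muscle markers 4 were higher than in sorted cells at both times and 0 lower. The 6 neural markers summed to 7446 to 8553 in sorted cells and 5294 to 6278 at day 8, with 1 higher and 1 lower. At day 14 they summed to 5788 to 11968, with 3 higher and 1 lower. The part of these cell types in the levels of the inhibitors was not tested.

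Frzb, a Frizzled-related protein first described in cartilage, followed with a later second step. Its signal was 321, 345, 318, 331, 309 and 265 in sorted cells, 285, 290, 263, 265, 256 and 268 on gelatin, and 296, 259, 243, 253, 251, 306 and 309 at day 4. It then reached 444, 666, 388, 625, 371 and 430 at day 8 and 767, 652, 739, 780, 711 and 677 at day 14. Every day 8 array exceeded every earlier array, and 5 of the 6 day 14 arrays exceeded every day 8 array. The log2 difference from sorted cells was 0.60 ± 0.11 at day 8 (adjusted p = 9.10e-05) and 1.20 ± 0.11 at day 14 (2.29-fold, adjusted p = 6.72e-10). From day 8 to day 14 Frzb rose by a further 0.60 ± 0.11 (adjusted p = 0.000136). Whether Frzb and Dkk1 differ in this step was not tested.

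**Figure D1:**
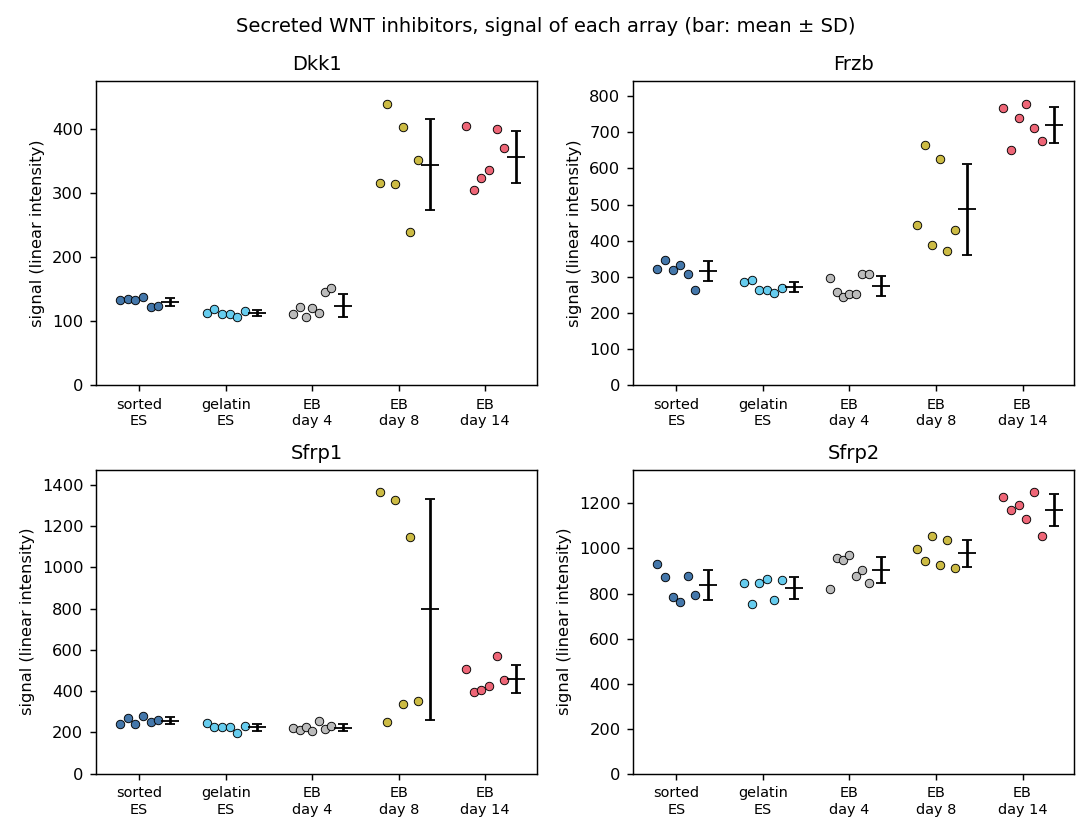
Signal (linear intensity, vertical axis from 0) of Dkk1, Frzb, Sfrp1 and Sfrp2 on each of the 31 arrays by group, one point per array in replicate order, with the mean ± SD of the group beside them. Dkk1 and Frzb separate days 8 and 14 from the earlier groups, Sfrp1 at day 8 lies at 1147 to 1364 on 3 arrays and at 252 to 350 on the other 3, and Sfrp2 shifts by a small step.

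Sfrp1 was higher at days 8 and 14, but the day 8 arrays fell into separate levels. The Sfrp1 signal was 240 to 280 in sorted cells (median 256), 197 to 247 on gelatin (median 226) and 207 to 256 at day 4 (median 220). At day 8 replicates 1 to 6 read 1364, 252, 1326, 337, 1147 and 350, and at day 14 they read 508, 394, 408, 424, 571 and 456. Replicates 1, 3 and 5 at day 8 lay above every other array of the series, while replicates 2, 4 and 6 lay below every day 14 array. Sfrp1 rose against sorted cells by 1.29 ± 0.29 on the log2 scale at day 8 (2.45-fold, adjusted p = 0.000915) and by 0.83 ± 0.29 at day 14 (1.77-fold, adjusted p = 0.019), and against gelatin by 1.48 and 1.02. From day 4 to day 8 the difference was 1.50 ± 0.28 (adjusted p = 0.000232). From day 8 to day 14 it was -0.46 ± 0.29 (adjusted p = 0.232), and weighting the arrays by their quality made it -0.96 with an adjusted p of 0.00204. Leaving out day 8 replicate 2 made it -0.73 with an adjusted p of 0.029. The ± values rest on 1 spread shared by the 5 groups, although the SD was 67.2% of the mean at day 8, 6.0% in sorted cells and 14.7% at day 14. They therefore do not measure the spread of the sorted and day 14 arrays alone, which did not overlap.

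Sfrp2, the relative of Sfrp1, changed by the smallest amount of the 4 inhibitors that passed the test. Its signal was 763 to 932 in sorted cells (median 833), 755 to 866 on gelatin (median 846), 819 to 973 at day 4 (median 905), 912 to 1054 at day 8 (median 972) and 1057 to 1250 at day 14 (median 1182). The day 14 arrays were all above the arrays of the other groups. The log2 difference from sorted cells was 0.23 ± 0.06 at day 8 (adjusted p = 0.00203) and 0.49 ± 0.06 at day 14 (1.40-fold, adjusted p = 3.88e-08), and from day 8 to day 14 it was 0.26 ± 0.06 (adjusted p = 0.000767). At day 4 it was 0.11 with a 95% interval from 0.00 to 0.22 (adjusted p = 0.13). In order of level, neighbouring groups from gelatin through sorted cells and day 4 to day 8 did not pass the test, and only the last step to day 14 did.

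Wls, which escorts WNT ligands through the secretory pathway, differed most between the 2 day-0 groups. Its signal was 447, 574, 529, 653, 215 and 510 in sorted cells and 4940, 4078, 3015, 3436, 3221 and 3428 on gelatin. It was the 1 member of 7 that passed the test there (7.86-fold higher on gelatin, log2 difference 2.98 ± 0.34, adjusted p = 6.16e-08), among 21.4% of probe sets higher and 18.2% lower (18.3% and 30.6% after median centring, 17.4% and 26.3% after quantile normalization). Dkk1 and Frzb passed there as lower on gelatin after median centring (-0.27 and -0.28). Without the low sorted replicate 5 the Wls difference was 2.75. Of the 12 fibroblast and mesenchyme markers, 7 were also higher on gelatin and 0 lower, among them Fbln2 (2.24 on the log2 scale), Col1a2 (1.79) and Col1a1 (1.51), while Col3a1, Col6a1, Lum, Dcn and Postn did not pass. No marker of that list was at 0 in either group. Their part in the Wls difference was not tested.

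In EBs of day 4 the Wls signal was 979, 2167, 814, 1208, 635, 440 and 600. Day 8 EBs read 874, 2569, 740, 2011, 586 and 1592, whereas those of day 14 read 2598, 1972, 2966, 2464, 2598 and 2255. The spread within days 4 and 8 was wide, and the day 14 arrays were close together. Against gelatin, from which the EBs were seeded, Wls fell by 2.08 ± 0.33 on the log2 scale at day 4 (4.22-fold lower, adjusted p = 1.93e-05) and by 1.59 ± 0.34 at day 8 (adjusted p = 0.000387). At day 14 the difference was -0.57 ± 0.34 (95% interval -1.26 to 0.13, adjusted p = 0.182), although every day 14 array was below every gelatin array. Against sorted cells the direction was the opposite, at 0.90 ± 0.33 at day 4 (adjusted p = 0.0439), 1.39 ± 0.34 at day 8 (adjusted p = 0.00201) and 2.41 ± 0.34 at day 14 (5.31-fold, adjusted p = 1.18e-06). The direction of Wls in EBs thus depends on which day-0 group is the reference. The day 4 difference from sorted cells passed the test by little: it was 0.68 with an adjusted p of 0.137 without sorted replicate 5, and 1.19 with 0.00798 without day 4 replicates 6 and 7. With those 2 groups alone in the fit it was 0.90 with an adjusted p of 0.108. Wls rose from day 8 to day 14 by 1.02 ± 0.34 (adjusted p = 0.0216), and leaving out day 8 replicate 1, 3 or 5 took the adjusted p to at most 0.0737.

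The day 8 arrays that read high for Sfrp1 read low for Wls. Replicates 1, 3 and 5, with 1364, 1326 and 1147 for Sfrp1, had 874, 740 and 586 for Wls, and replicates 2, 4 and 6 had 2569, 2011 and 1592. Dkk1 was also lower on replicates 1, 3 and 5 (315, 315 and 240) than on 2, 4 and 6 (440, 403 and 352), while Sfrp2 was slightly higher on them (999, 1054 and 1036 against 946, 925 and 912). Frzb, Ctnnb1 and Lef1 did not split in this way. Frzb read 430 on replicate 6 and 444 on replicate 1, and Ctnnb1 on replicate 6 (5921) lay among replicates 1, 3 and 5 (5544, 5762 and 6129). The arrays that split differed in marker genes as well. The 10 ES cell markers summed to 31139, 36689 and 39054 on replicates 1, 3 and 5 and to 14603, 15664 and 17265 on 2, 4 and 6. The fibroblast markers summed to 8078, 7105 and 6593 against 18889, 13999 and 13545, and 6 visceral endoderm markers to 11893, 15893 and 11771 against 23521, 22612 and 23865. The labels give the 6 arrays as replicates of 1 group, so no test was made between them, and the part of cell composition in the Sfrp1 and Wls values was not tested.

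**Figure D2:**
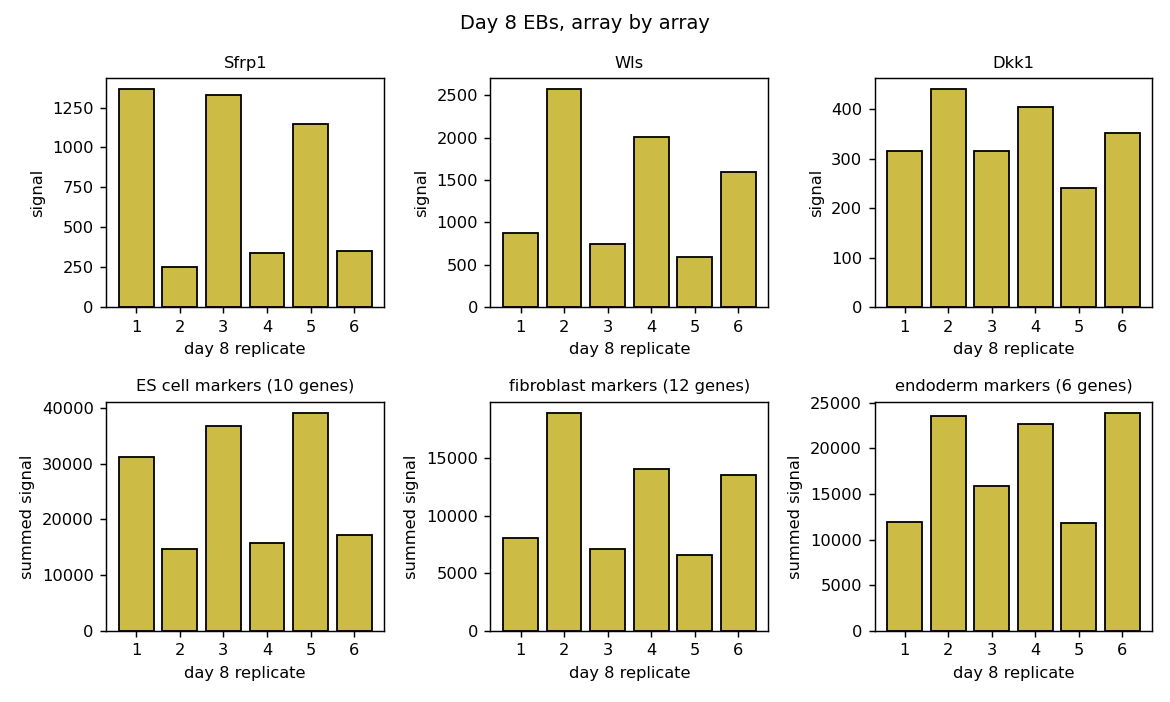
The 6 day 8 EB arrays by replicate number, with bars from 0 for the signal of Sfrp1, Wls and Dkk1 and for the summed signal of ES cell, fibroblast and visceral endoderm markers. Replicates 1, 3 and 5 are high for Sfrp1 and ES cell markers and low for Wls, Dkk1 and the other markers.

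Ctnnb1, whose protein is both the WNT signal carrier and a part of cadherin junctions, varied more within groups than between most of them. Its signal was 11022, 10276, 7801, 9537, 4981 and 11132 in sorted cells, 10935, 10570, 7273, 7901, 10222 and 7281 on gelatin. Day 4 EBs read 11286, 11049, 9402, 11772, 11962, 3790 and 5589. Day 8 EBs read 5544, 9860, 5762, 10080, 6129 and 5921, whereas those of day 14 read 12949, 11106, 12460, 11057, 12479 and 11222. The lowest values in sorted cells and at day 4 were those of the arrays that stood apart, replicate 5 and replicates 6 and 7. On gelatin the lowest were those of replicates 3, 4 and 6. Their Gapdh 3′ over 5′ ratios were 6.67, 6.31 and 6.85, against 4.04, 3.94 and 3.48 for replicates 1, 2 and 5. The part of RNA integrity in the Ctnnb1 values was not tested. At day 8 the difference was -0.34 ± 0.24 from sorted cells (adjusted p = 0.304) and -0.35 ± 0.24 from gelatin (adjusted p = 0.253), and weighting the arrays made these -0.61 (adjusted p = 0.0019) and -0.49 (adjusted p = 0.0105), both lower. Against sorted cells the day 14 difference was 0.43 ± 0.24 (95% interval -0.07 to 0.92, adjusted p = 0.148). Against gelatin it was 0.41 ± 0.24 (adjusted p = 0.170), although every day 14 array was above every gelatin array. The difference from gelatin passed as higher with array weights (0.46, adjusted p = 0.014) and with 2 groups only (adjusted p = 0.0112). From day 8 to day 14 Ctnnb1 rose by 0.77 ± 0.24 (1.70-fold, adjusted p = 0.0168), with no overlap between the groups. From day 4 to day 8 the difference was -0.30 ± 0.23 (adjusted p = 0.378), and without day 4 replicates 6 and 7 it was -0.66 with an adjusted p of 0.00571.

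The 2 probe sets of Lef1 disagreed. On the brighter one the signal was 1213 to 1461 in sorted cells (median 1372), 1250 to 1399 on gelatin (median 1348), 1043 to 1449 at day 4 (median 1299), 1273 to 1499 at day 8 (median 1384) and 1278 to 1643 at day 14 (median 1493), and 0 of the 9 comparisons passed the test. Day 14 against gelatin passed as higher after quantile normalization (0.18, adjusted p = 0.0458), with array weights and with 2 groups only. Without day 14 replicate 1, day 14 passed as higher against gelatin (adjusted p = 0.0161) and against sorted cells (adjusted p = 0.0341). Day 8 against day 4 passed as higher with array weights (0.19, adjusted p = 0.0255). The 95% interval of the day 14 difference from sorted cells was -0.01 to 0.27. On the dimmer one the signal was 597 to 811 in sorted cells (median 745), against 512 to 629 on gelatin (median 554), 579 to 759 at day 4 (median 633), 502 to 622 at day 8 (median 620) and 439 to 643 at day 14 (median 570). The dimmer probe set fell against sorted cells by 0.38 ± 0.09 on gelatin (adjusted p = 0.000907), by 0.30 ± 0.09 at day 8 (adjusted p = 0.00847) and by 0.39 ± 0.09 at day 14 (adjusted p = 0.00054), with overlapping values. Because of this disagreement no direction is given for Lef1.

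**Figure D3:**
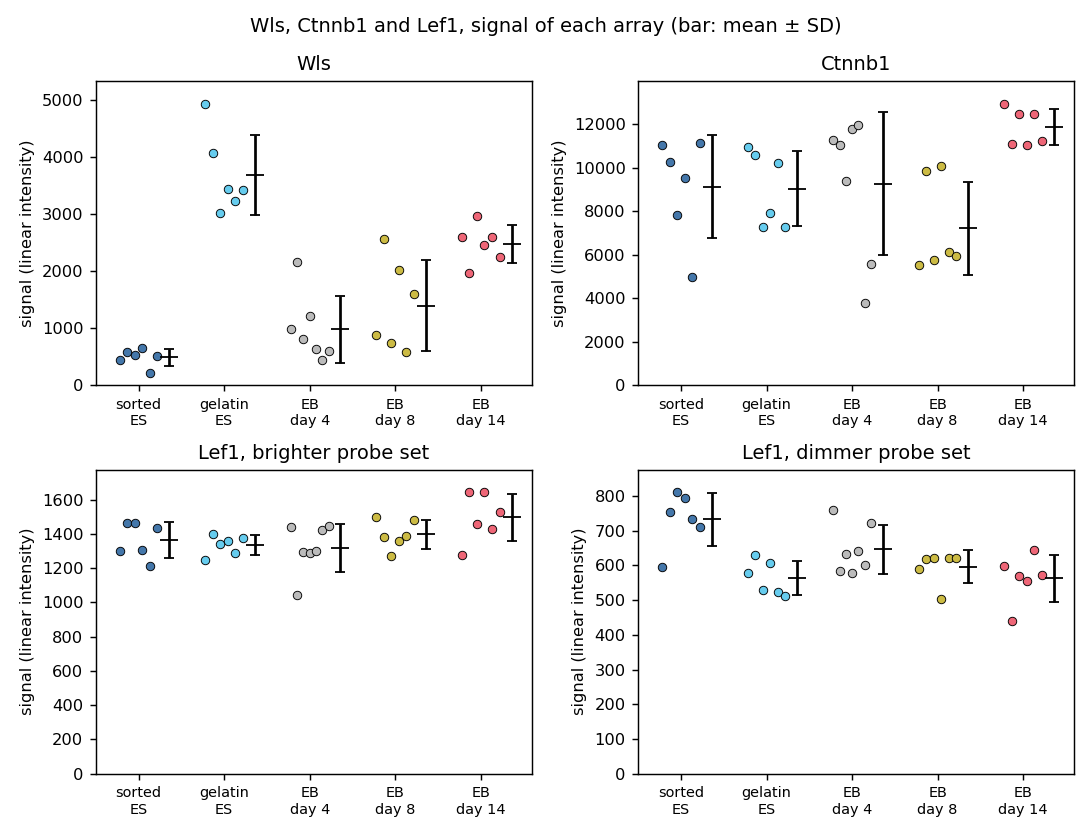
Signal (linear intensity, vertical axis from 0) of Wls, Ctnnb1 and both Lef1 probe sets on each array by group, one point per array in replicate order, with the mean ± SD of the group beside them. Wls is highest on gelatin (3015 to 4940) and lowest in sorted cells (215 to 653), and Ctnnb1 is between 11057 and 12949 at day 14.

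The counts that follow are by gene, with the brighter probe set for Lef1. Against sorted cells 1 of 7 was higher at day 4 (Wls), when 11.1% of all probe sets were higher and 13.7% lower. At day 8 the 4 inhibitors and Wls were higher, 5 of 7, against 15.3% higher and 19.9% lower overall. At day 14 these same 5 were higher, against 24.8% and 24% overall (18.7% and 41.1% after median centring, 20.2% and 33% after quantile normalization). The median log2 difference of the 7 members was 0.83 at day 14, and that of all 8251 genes was 0.00. Median centring lowered the median of all probe sets in that comparison to -0.11, against which the 5 members were still higher. No member was lower in these 3 comparisons in the fit as described, whereas Frzb at day 4 and Ctnnb1 at day 8 were lower with array weights and Sfrp1 at day 4 with 2 groups only in the fit.

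Against the cells on gelatin, 0 of 7 members were higher at day 4 and 1 was lower (Wls), with 7.95% of all probe sets higher and 16.3% lower (19.5% and 12.2% after median centring, 14.8% and 11.3% after quantile normalization). Either of these scalings added Sfrp2 to the genes higher at day 4 (log2 difference 0.20, adjusted p = 0.0148 after median centring), where the value as deposited was 0.13 with an adjusted p of 0.0726. At day 8 the 4 inhibitors were higher and Wls lower, against 17.4% and 25.6% overall (22.3% and 21.6% after median centring, 24.6% and 20.5% after quantile normalization). At day 14 the 4 inhibitors were higher and 0 members lower, against 21.8% and 23.2%. The 4 inhibitors were higher than both day-0 groups at days 8 and 14 under median centring and quantile normalization as well.

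Between successive EB times, Dkk1, Frzb and Sfrp1 were higher at day 8 than at day 4 (3 of 7, against 11.9% of probe sets higher and 12.6% lower), and Frzb, Sfrp2, Wls and Ctnnb1 were higher at day 14 than at day 8 (4 of 7, against 20.1% higher and 11.9% lower, or 13.9% and 25.4% after median centring and 14.6% and 19.9% after quantile normalization). No member was lower at either step in the fit as described. With array weights Ctnnb1 was lower at the first and Sfrp1 at the second. Without day 4 replicates 6 and 7 Ctnnb1 was lower at the first, and without day 8 replicate 2 Sfrp1 was lower at the second. A difference of at least 2-fold, asked as well, was met against sorted cells by Dkk1, Sfrp1 and Wls at day 8, when 2.35% of all probe sets met it as higher and 1.26% as lower. At day 14 Dkk1, Frzb and Wls met it, against 5.65% and 1.91% overall. The plot of log2 differences sets the values against both day-0 groups side by side.

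**Figure D4:**
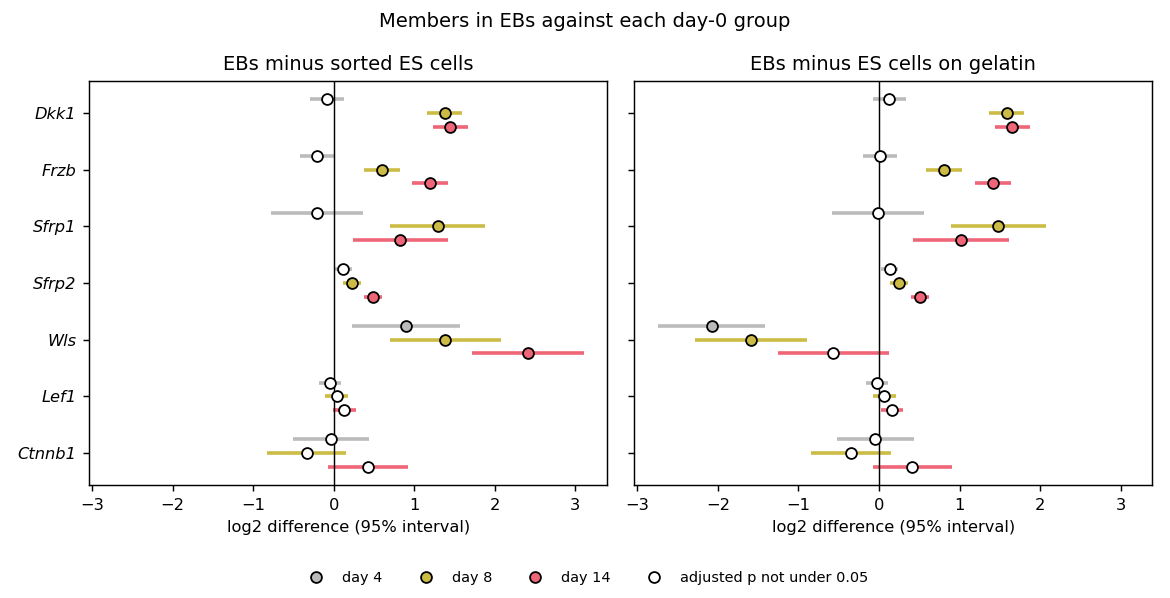
Log2 difference of each EB time from sorted ES cells (left) and from ES cells on gelatin (right) for the 7 members, with 95% intervals from limma, filled where the adjusted p is under 0.05 and open where it is not. Dkk1, Frzb, Sfrp1 and Sfrp2 lie right of 0 at days 8 and 14 in both panels, and Wls lies right of 0 on the left and left of 0 on the right.

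Over the 31 arrays, the genes whose log2 values followed Dkk1 most closely were Prss12, a secreted serine protease, Vil1, which bundles actin in microvilli, and Apoc2, a cofactor of lipoprotein lipase (Pearson r 0.98 for each among 8244 genes). For Frzb they were Tspan8, Dlk1 and Gas1 (0.98, 0.97 and 0.97). Sfrp1 was followed by Med1, a Mediator subunit (0.91), the imprinted noncoding RNA Meg3 (0.85) and Plbd1 (0.80). Med1 had the day 8 split of Sfrp1, at 1636, 716, 1703, 711, 1666 and 719 on replicates 1 to 6. Sfrp2 was followed by Col13a1 (0.86), Ggcx and Pdzk1 (0.85 each), Wls by Ndn (0.97), Clcn5 and Cast (0.94 each), Ctnnb1 by Usp33 (0.96), Gdi2 (0.96) and Nap1l1 (0.95), and Lef1 by Hap1 (0.86), Rhog (0.83) and Sncb (0.82). These correlations share the group means and the arrays and are descriptions only.

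Of 97 symbols listed for the rest of the pathway, older synonyms included, 66 genes were measured. At day 14, 21 of them were higher than in sorted cells and 12 lower, and the other 33 missed the threshold (the median over the 66 was 0.06). Of all probe sets 24.8% were higher and 24% lower in that comparison, the background for each role below. After median centring 18 pathway genes were higher and 19 lower (18.7% and 41.1% of all probe sets), and after quantile normalization 19 and 18 (20.2% and 33%). Against gelatin 13 of the 66 were higher at day 14 and 17 lower, with 21.8% and 23.2% of all probe sets. The balance of the pathway genes thus depends on the day-0 group. The differences by role below are from sorted cells unless said otherwise. Porcn, which modifies the ligands before Wls carries them, and the receptor-level inhibitors had no probe set of 1 symbol. Of 4 further genes measured from the list of secreted inhibitors, 3 were higher at day 14: Dkk2 (1.20 ± 0.16), which binds the same coreceptors as Dkk1, Cer1 (1.04 ± 0.22), and Dkk3 (0.17 ± 0.05), while Sfrp4 was at -0.20 ± 0.09 (adjusted p = 0.0799). Under either scaling Dkk3 no longer passed (0.06 and 0.07) and Sfrp4 passed as lower (-0.31 in both). Dkk2 did not share the day 8 rise of Dkk1: its signal was 151 to 191 in sorted cells, 101 to 162 at day 8 (-0.53 ± 0.16, lower with adjusted p = 0.0115) and 263 to 573 at day 14. Cer1, made in anterior visceral endoderm, is in the mouse known as an antagonist of Nodal and BMP ligands and not of WNT, so its place in the list is not that of a WNT inhibitor. Its signal was 269 to 381 in sorted cells, 335 to 820 at day 8 and 420 to 1123 at day 14.

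Among 16 ligands and R-spondins, 2 were higher at day 14 than in sorted cells and 6 lower. Wnt11 (0.75 ± 0.08) and Rspo2 (0.74 ± 0.16) were higher, and Wnt4 (-0.58 ± 0.08) and Rspo1 (-0.40 ± 0.12) were lower. Of 14 receptors 5 were higher, led by Ryk (0.56 ± 0.11), a tyrosine kinase-like WNT receptor, Fzd2 and Fzd3 (0.37 each) and Lgr5 (0.33), and 3 were lower. Of 6 relay genes Csnk1e (1.49 ± 0.27), Csnk1d (0.56 ± 0.10) and Csnk2a1 (0.47 ± 0.18), all casein kinases, were higher and 0 lower. After median centring Csnk2a1 no longer passed and Dvl1 (-0.22) and Dvl3 (-0.14), relays between receptor and destruction complex, passed as lower, and after quantile normalization Dvl1 did (-0.23). Under either scaling the counts became 2 higher and 8 lower for the ligands and R-spondins, 4 and 4 for the receptors and 3 and 3 for the nuclear factors. In the destruction complex, Csnk1a1 was higher (0.54 ± 0.15) and Axin2, a scaffold of the complex and a widely used target of the pathway, was lower (-0.30 ± 0.07).

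Of 11 nuclear factors 3 were higher, namely Tle1 (0.66 ± 0.12), a corepressor of TCF/LEF factors, Crebbp (0.49 ± 0.09) and Ctbp1 (0.46 ± 0.11), and 2 were lower, of which Ctbp2 fell by 1.30 ± 0.14. Its signal went from 3957 to 4684 in sorted cells to 1539 to 1935 at day 14. Among 4 catenin and cadherin partners of β-catenin, Cdh2, the neural cadherin, was higher at day 14 (2.99 ± 0.40) and so was the catenin Ctnna1 (0.43 ± 0.10). Cdh2, like Wls, was higher on gelatin (1434 to 3368) than in sorted cells (148 to 321). Of 7 target genes Ccnd1 (0.76 ± 0.24) and Tnfrsf19 (0.62 ± 0.08) were higher, Axin2 was lower and 4 did not pass. Against gelatin the day 14 counts, higher then lower, were 2 and 5 for ligands, 4 and 1 for receptors, and 4 and 0 for the further secreted inhibitors. They were 1 and 1 for relay genes and 1 and 2 for the destruction complex. Nuclear factors had 0 and 4, catenin and cadherin partners 0 and 1, and target genes 1 and 3.

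**Figure D5:**
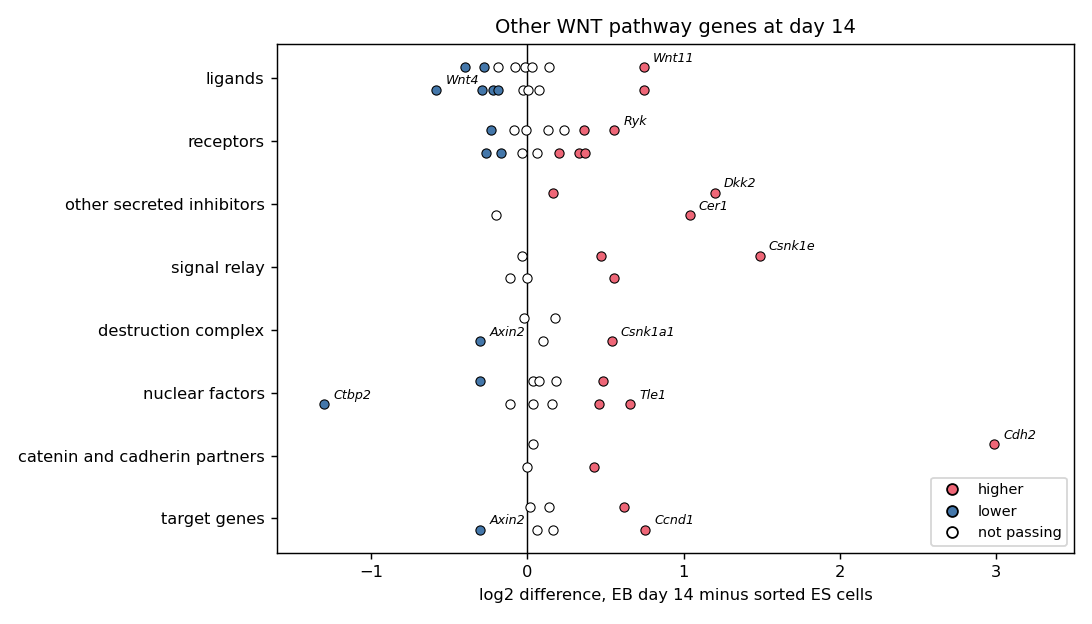
Log2 difference of day 14 EBs from sorted ES cells (horizontal axis) for the measured WNT pathway genes other than the members, by role, one point per gene, with Axin2 in 2 roles; the vertical offset within a row has no meaning. Colour marks genes higher or lower at adjusted p under 0.05, and the labelled genes include Cdh2 (2.99), Csnk1e (1.49), Dkk2 (1.20) and Ctbp2 (-1.30).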

How the data were processed

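Total RNA from ES cells and EBs was amplified in 2 rounds and hybridized to Affymetrix MgU74Av2 arrays. The deposited values are intensities that the authors normalized and modelled per probe set with dChip, on a linear scale, and the version and model are not given in the sources used here. The time written as 14 days in the labels is listed as 12 in the methods, and the labels were followed. The methods state 6 biological samples per time point; each array was treated as a separate sample, and p-values measure the spread between these samples.

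Of 12488 probe sets, 66 controls were left out. Values under the 5th percentile (59.6) were raised to it and log2 transformed. The 31 arrays shared 1 fit of 5 group means by lmFit and eBayes (trend) in limma 3.58.1 under R 4.3.3, with two-sided p-values adjusted after Benjamini-Hochberg over 12422 probe sets at 0.05. The number of arrays limits the precision. Gene names come from the platform annotation, and the brightest probe set represents a gene. The members and gene lists were chosen with earlier results of these data known. Other pathway genes named are up to 4 per role with the largest difference of day 14 from sorted cells among those that passed; the marker genes and the further values of Cer1, Dkk2, Cdh2, Ctbp2 and Med1 were picked after seeing them.

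The settings varied were the scaling (quantile, median), the floor (1st, 25th percentile), the dimmest 40% of probe sets (left out), the groups fitted (2 only), a replicate block, array quality weights, the variance trend (none), a 2-fold minimum, averaged probe sets, and each array left out. Leaving out day 4 replicates 6 and 7 together was chosen after seeing the data. The fit was tested on simulated data. Figures were drawn with matplotlib 3.10.9.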

Additional observations from a re-analysis of the deposited data

Results flagged for a closer look

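Of 40 groups of arrays examined for the 8 probe sets, 3 held 1 array far from the others, where chance gives about 1 in 20. Wls in sorted replicate 5 read 215.3, and the other sorted arrays read 447.4 to 653.2. The brighter Lef1 probe set read 1042.6 on day 4 replicate 2, against 1287.4 to 1448.7 on the other day 4 arrays. The dimmer Lef1 probe set read 502.4 on day 8 replicate 4, against 590.7 to 621.5. Sorted replicate 5 also correlated least with its group.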

How the results depend on the processing

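Under settings other than leaving out 1 array, 653 of 708 values of the members kept their direction and side of the threshold, as did 842 of 888 with 1 array left out. The higher levels of Dkk1, Frzb, Sfrp1 and Sfrp2 at days 8 and 14 against both day-0 groups passed under every setting that kept their probe sets, apart from the 2-fold minimum. Same-numbered arrays correlated between -0.351 and 0.494 after removing group means (23 of 60 pairs over 0.1). Differently numbered arrays were not set beside them, so these values cannot decide whether a number marks a shared batch. The replicate block changed 0 of 72 values, with 5 members passing at day 14 against sorted cells as without it. The causes of the changes below were not tested, except that leaving out the dimmest probe sets removes Dkk1, Frzb and Sfrp1.

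Members passing against sorted cells were 3 on gelatin after median centring, 4 with 2 groups only, 3 with array weights and 2 with averaged probe sets, in place of 1. The added members all passed as lower on gelatin (Dkk1 and Frzb in the first 3 settings, Sfrp1 with 2 groups only, Lef1 with averaged probe sets), where 48.8%, 43.8% and 48.3% of all probe sets passed in the first 3 settings, against 39.6%. At day 4 the 1 member passing, Wls, became 0 with a 2-fold minimum (1.33% of all probe sets passing) or the 25th percentile floor (20%) and 3 members with array weights (33.8%), against 24.8%. With 2 groups only, Wls no longer passed (0.90, adjusted p = 0.108) and Sfrp1 passed as lower (-0.21, adjusted p = 0.0218), with 17.6% of all probe sets passing. At day 8 the 5 became 3 with the 2-fold minimum and 2 without dim probe sets (3.61% and 39% of all probe sets, against 35.2%), and at day 14 likewise 3 and 2 (7.56% and 54.9%, against 48.8%). Against gelatin, day 4 had 2 in place of 1 after quantile normalization, median centring or array weights (26.1%, 31.7% and 26.9% of all probe sets, against 24.2%), day 8 had 3 (2-fold, 5.45%) and 2 (dim left out, 48.7%) in place of 5 (42.9%), and day 14 had 1 (dim left out, 51.2%) and 7 (2 groups only, 49.8%, Wls among them as lower) in place of 4 (45%). From day 4 to day 8 the 3 (24.5%) became 0 (dim left out, 30.9%) and 5 (array weights, 41.8%, Ctnnb1 among them as lower), and from day 8 to day 14 the 4 (31.9%) became 1 (2-fold, 2.67%).

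Changes of sign concerned differences that passed neither before nor after. For Ctnnb1 on gelatin against sorted cells they were -0.088 (quantile), -0.050 (median) and -0.124 (array weights), and for Sfrp2 0.0055 (array weights). At day 4 against gelatin they were, after quantile normalization and median centring, 0.023 and 0.057 for Sfrp1, 0.078 and 0.048 for Lef1, and 0.054 and 0.024 for Ctnnb1. With array weights they were -0.046 for Frzb and 0.217 for Ctnnb1 at day 4 against gelatin, 0.092 for Ctnnb1 at day 4 against sorted cells, 0.013 for the dimmer Lef1 probe set at day 14 against gelatin, and -0.16 for Wls from day 4 to day 8. For Dkk1 from day 8 to day 14 they were -0.0105 (quantile) and -0.021 (median). Averaging the Lef1 probe sets gave -0.13 at days 8 and 14 against sorted cells, 0.086 at day 4 against gelatin and -0.013 from day 4 to day 8. Without day 4 replicates 6 and 7, Ctnnb1 was at 0.33 against sorted cells and 0.31 against gelatin, and Frzb at -0.058 against gelatin.

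With 1 array left out, members passing at day 4 ranged from 0 to 1 against sorted cells and from 1 to 2 against gelatin. At day 14 they ranged from 5 to 6 against sorted cells, from 4 to 5 against gelatin and from 3 to 5 against day 8. Signs changed within these ranges. On gelatin against sorted cells they were -0.046 to 0.012 for Sfrp2 and -0.15 to 0.081 for Ctnnb1. At day 4 against gelatin they were -0.019 to 0.039 for Frzb, -0.052 to 0.013 for Sfrp1, -0.048 to 0.031 for Lef1 and -0.13 to 0.15 for Ctnnb1. At day 4 against sorted cells they were -0.085 to 0.0033 for Lef1 and -0.20 to 0.16 for Ctnnb1. For the dimmer Lef1 probe set at day 14 against gelatin the range was -0.048 to 0.062, and for Dkk1 from day 8 to day 14 it was -0.028 to 0.15. Calls that ended were those of Wls, at day 4 against sorted cells (0.67 to 1.06) without sorted replicate 1, 3, 5 or 6 or day 4 replicate 1, 2, 3 or 4, and from day 8 to day 14 (0.81 to 1.24) without day 8 replicate 1, 3 or 5. Calls that began were as follows. Sfrp1 was lower from day 8 to day 14 without day 8 replicate 2. Sfrp2 was higher at day 4 than on gelatin without day 4 replicate 1 (adjusted p = 0.0342). The brighter Lef1 probe set was higher at day 14 than in either day-0 group without day 14 replicate 1. The dimmer one was lower at day 4 than in sorted cells without sorted replicate 1 or day 4 replicate 1.

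Of all probe sets, a 2-fold minimum left 165 of 3075 at day 4 and 939 of 6066 at day 14 against sorted cells, and 277 to 865 in the other comparisons. Leaving out dim probe sets gave 2909 in place of 4369 at day 8 against sorted cells. From day 4 to day 8 the 3039 became 1806 with 2 groups only, 5197 with array weights and 4655 without day 4 replicates 6 and 7.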
